A study of Mus musculus with 40 samples.

Results

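The let-7 family with miR-98 comprised 9 mature microRNAs (miRNAs), the 5p arms of let-7a, let-7b, let-7c, let-7d, let-7e, let-7f, let-7g, let-7i and of miR-98, among the 1978 mature miRNAs counted in the study. The members were chosen by name, and where a member was listed with several precursors, the row with the highest total was used. The study asked how miRNAs of the hippocampus differ with age in a mouse model of heart failure, CaMKIIδC transgenic (TG) mice, which overexpress the δC isoform of CaMKII, a kinase switched on by calcium and calmodulin. Small RNA was sequenced from the CA1 subregion of 40 mice on a C57Bl/6J background, male and female, with 1 library per mouse. The younger groups, aged 3 months, held 5 wild-type (WT) and 9 TG mice, and the older groups, aged 6 months, held 15 WT and 11 TG mice. The WT mice were littermates without the transgene, and the promoter that drives the transgene is not given in the sources used here. In WT mice 1 and 2 of 3 months, the genotype field reads TG while the title reads wild-type, and the title was followed. Groups and their sizes are those of the sample titles, and the study's text gives other numbers of TG mice for these libraries, a difference that could not be settled here.

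let-7 miRNAs were first described as timing factors of nematode development and are kept with almost the same sequence throughout bilaterian animals. Their precursors are held back by the RNA-binding protein Lin28 in stem and progenitor cells, and the mature forms accumulate as cells differentiate, so that adult neurons are rich in them. Known targets include the growth regulators Hmga2, Myc and Ras, and all members pair with targets through a common seed.

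The 9 sequences are shown because the members are told apart by single bases, which bears on every count given here. They were taken from RefSeq (GRCm38.p6), in which all 9 members were matched, and the seed, bases 2 to 8, is in capitals. The prefix mmu, for mouse, is left out further on.
mmu-let-7a-5p: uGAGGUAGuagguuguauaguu
mmu-let-7b-5p: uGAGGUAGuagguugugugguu
mmu-let-7c-5p: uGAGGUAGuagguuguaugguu
mmu-let-7d-5p: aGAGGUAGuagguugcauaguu
mmu-let-7e-5p: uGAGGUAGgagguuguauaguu
mmu-let-7f-5p: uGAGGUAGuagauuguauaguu
mmu-let-7g-5p: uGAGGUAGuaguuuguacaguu
mmu-let-7i-5p: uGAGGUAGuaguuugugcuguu
mmu-miR-98-5p: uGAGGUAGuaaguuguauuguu

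All 9 members had a length of 22 bases and the seed GAGGUAG. Relative to let-7a-5p, with positions counted from 1 at the 5′ end, let-7c-5p differed by A19G, let-7e-5p by U9G and let-7f-5p by G12A alone. let-7d-5p, with U1A and U16C, was the member that began with A. let-7g-5p carried G12U and U18C, let-7i-5p carried G12U, A17G, U18C and A19U, and miR-98-5p carried G11A and A19U. Of the 36 pairs of members, 4 differed by a single base, so that reads with a sequencing error could have been counted on the wrong member, and the values of single members carry that uncertainty. The number of G and C bases ran from 7 in let-7f-5p and miR-98-5p to 10 in let-7b-5p.

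The hairpins lie at several places in the mouse genome (positions from RefSeq on GRCm38, the build of the study's mm10, and genes around them from GENCODE M21). Mirlet7g lies on chromosome 9 at 106178840 to 106178927 in an intron of Wdr82, and Mirlet7i on chromosome 10 at 122985640 to 122985724 in an exon of D630033A02Rik. Mirlet7d, Mirlet7f-1 and Mirlet7a-1 lie within one long noncoding RNA, 6720427I07Rik, on chromosome 13, from 48536012 for the first to 48538272 for the last. Mirlet7f-2, at 151912346 to 151912428 of chromosome X, and Mir98, at 151913214 to 151913321, lie 868 bases apart in an intron of Huwe1. Mirlet7c-2 and Mirlet7b lie 716 bases apart in Lncppara on chromosome 15. Further hairpins are beside those of other families, Mirlet7c-1 beside Mir99a on chromosome 16, Mirlet7e beside Mir125a on chromosome 17, and Mirlet7a-2 between Mir100 and Mir125b-1 on chromosome 9. let-7a-5p, let-7c-5p and let-7f-5p each come from a pair of hairpins with the same mature sequence. Their reads were counted on both hairpins, and the second row held 99.8%, 99.1% and 97.6% of the total of the first, so the 5p counts do not say which hairpin was transcribed.

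Total counts per library ranged from 2656368 to 36547011, with medians of 22455957 and 29499287 in WT and TG mice at 3 months and of 14908612 and 13894826 at 6 months, so depth and age cannot be told apart. No member was counted fewer than 608 times in any library, and 3 counts, the limit that a count of 0 allows, corresponded to 0.131 to 1.56 CPM, the count after each library is scaled to a common total. This limit covers counting error only. The miRNAs typical of neurons, all 6 of which were detected, summed to 182358 to 386692 CPM per mouse, and those of heart and muscle to 245 to 1698 CPM, with miR-208a-3p at 0 in some libraries. Levels are given in CPM after TMM normalization, which scales each library so that most miRNAs are level between libraries.

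The family made up a large part of the miRNA counts in CA1. In raw counts it took between 14.5% and 33.2% of all miRNA counts of a library, with a median of 16.7% over 40 mice. At 6 months this share was narrow, 15.1% to 18.7% (median 16.4%) in 15 WT mice and 14.5% to 18.0% (median 16.2%) in 11 TG mice. At 3 months it was 15.4%, 20.9%, 24.8%, 23.8% and 15.7% in WT mice 1 to 5, and 16.6% to 33.2% (median 21.4%) in 9 TG mice. The 3 highest shares of all mice belonged to 3-month-old TG mice 1, 2 and 3, with 27.0%, 29.5% and 33.2%, and the lowest of their group to TG mouse 8. In both genotypes the share at 6 months was below the mean at 3 months in every mouse, 11 of 11 and 15 of 15, while the ranges of the ages overlapped.

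After TMM normalization the same 3 mice stood apart further. The family total was 326643, 370784 and 526571 CPM in 3-month-old TG mice 1 to 3, and 141887 to 187104 CPM in the other 6 mice of that group. Of the other 37 mice, the highest was 243608 CPM, in 6-month-old WT mouse 5, whose library was among the shallowest (2080504 miRNA counts). The 5 WT mice at 3 months had 152195, 157271, 227914, 205463 and 133034 CPM, and the medians at 6 months were 154876 CPM in WT mice (134172 to 243608) and 178691 CPM in TG mice (148099 to 216686). The medians at 3 months, 157271 CPM in WT and 184331 CPM in TG mice, were thus close to those at 6 months. The group mean at 3 months in TG mice, 244926 ± 133992 CPM (SD, n = 9), lay above its median. The TMM factors of 3-month-old TG mice 1 to 3 were 0.825, 0.796 and 0.63, against a group median of 1.23, so that the scaling raised their values. Factors of 0.638 and 0.621 also occurred in 6-month-old WT mice 4 and 5, in which the family took 15.1% of miRNA counts. The median factor of TG mice at 6 months was 0.85. In raw counts the median share in TG mice was 21.4% at 3 and 16.2% at 6 months, so the closeness of their CPM medians depends on this scaling.

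**Figure D1:**
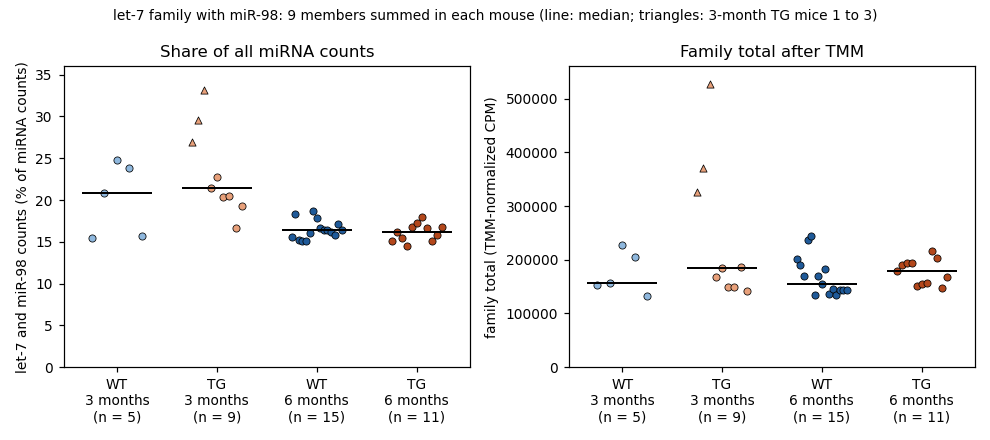
The left panel plots the share of the 9 members in all miRNA counts of each mouse in percent, and the right panel plots their sum in TMM-normalized CPM, with 1 point per mouse, a line at the group median and triangles for 3-month-old TG mice 1 to 3. These 3 mice, at 326643 to 526571 CPM, lie above the other 37 mice, while the other 6 mice of their group lie between 141887 and 187104 CPM.

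The members have the same length, and their CPM are set side by side as counts. How evenly the library preparation captured each sequence was not tested, so the order below is one of counts. let-7f-5p had the highest counts, with a median of 51373 CPM over 40 mice, and ranked 5th among all miRNAs. It exceeded let-7g-5p in 40 of 40 mice. let-7g-5p (median 30791 CPM), let-7i-5p (28743 CPM) and let-7c-5p (26588 CPM) followed, and their order changed between mice. let-7g-5p exceeded let-7i-5p in 24 of 40 mice and let-7i-5p exceeded let-7c-5p in 29 of 40. The differences between these neighbours were not tested. The order below them was steady, with let-7a-5p at 14136 CPM, let-7b-5p at 7655 CPM, let-7d-5p at 4250 CPM and let-7e-5p at 2631 CPM. let-7d-5p exceeded let-7e-5p in 39 of 40 mice. miR-98-5p, which ranked 89th, had the lowest counts of the members, at 659 CPM.

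Comparing 6 with 3 months in TG mice, let-7g-5p and miR-98-5p fell, and the other 7 members did not pass the test. The 2 called members are 2 of 9, where 8.27% of the 629 miRNAs tested were called lower, 7.47% higher and 15.7% in either direction by the same rule. This rule asks for an adjusted p under 0.05 (Benjamini-Hochberg) in the quasi-likelihood test of edgeR, and for a log2FC beyond 0.26 in either direction. The log2FC, given as 6 over 3 months, was below 0 for 9 of 9 members and for 56.9% of all miRNAs tested. The median over the members was -0.34 and that over all miRNAs tested was -0.09. In the bulk tissue, fewer cells of a type and less RNA per cell cannot be told apart. All p-values measure the spread between these mice.

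let-7g-5p comes from 1 hairpin and is therefore free of the uncertainty between hairpins. In 3-month-old TG mice 1 to 9 its level was 58068, 58837, 69989, 39422, 42926, 36520, 35968, 33548 and 31226 CPM. In 11 TG mice at 6 months it was 26654 to 32550 CPM, with a median of 30518 CPM. Of the 9 younger mice, 8 lay above every older mouse, and mouse 9 lay within their range. The log2FC was -0.58 (SE 0.14, adjusted p = 0.00892, edgeR). In WT mice let-7g-5p was 26978, 38353, 48721, 45002 and 25340 CPM at 3 months and 21702 to 32600 CPM (median 27237) at 6 months. Mice 2, 3 and 4 lay above all 15 older mice, mice 1 and 5 within them, and the log2FC of -0.41 (SE 0.14, adjusted p = 0.213, edgeR) was not called.

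miR-98-5p shares the Huwe1 intron with let-7f-2 and is named apart from the family although it carries the let-7 seed. Its level in 3-month-old TG mice 1 to 9 was 1258, 1975, 1742, 808, 1072, 708, 793, 566 and 652 CPM. At 6 months it was 439 to 798 CPM, with a median of 630 CPM. The younger mice lay above all older ones in 5 of 9 cases, the ranges overlapped, and the log2FC was -0.73 (SE 0.20, adjusted p = 0.0175, edgeR). In WT mice it was 614, 737, 918, 856 and 606 CPM at 3 months and 431 to 842 CPM (median 657) at 6 months, with a log2FC of -0.26 (SE 0.16, adjusted p = 0.436, edgeR).

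let-7f-5p had the widest spread of all members. It was 131978, 156247 and 231281 CPM in 3-month-old TG mice 1 to 3, 39312 to 60620 CPM in the other 6, and 38618 to 72810 CPM (median 59160) at 6 months. The median at 3 months, 54080 CPM, was therefore below that at 6 months although the log2FC was -0.63 (SE 0.30, adjusted p = 0.149, edgeR). In WT mice let-7f-5p was 43262, 42872, 69970, 65790 and 35299 CPM at 3 months and 34797 to 99795 CPM (median 46010) at 6 months.

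The remaining members gave smaller values. let-7a-5p had a log2FC of -0.43 (SE 0.21), let-7d-5p of -0.34 (SE 0.15), let-7e-5p of -0.31 (SE 0.18), let-7b-5p of -0.26 (SE 0.18), let-7i-5p of -0.25 (SE 0.24) and let-7c-5p of -0.15 (SE 0.17). None of these 6 was called. The 3-month-old TG mice 1 to 3 were above all other 37 mice for the a, c, e and i members, mice 2 and 3 for let-7b-5p, and mouse 3 for let-7d-5p. The medians of TG mice at 3 and 6 months were 5035 and 3875 CPM for let-7d-5p, 7722 and 7588 CPM for let-7b-5p, 15022 and 14750 CPM for let-7a-5p, 25146 and 26818 CPM for let-7c-5p, 2665 and 2666 CPM for let-7e-5p, and 30015 and 34019 CPM for let-7i-5p.

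**Figure D2:**
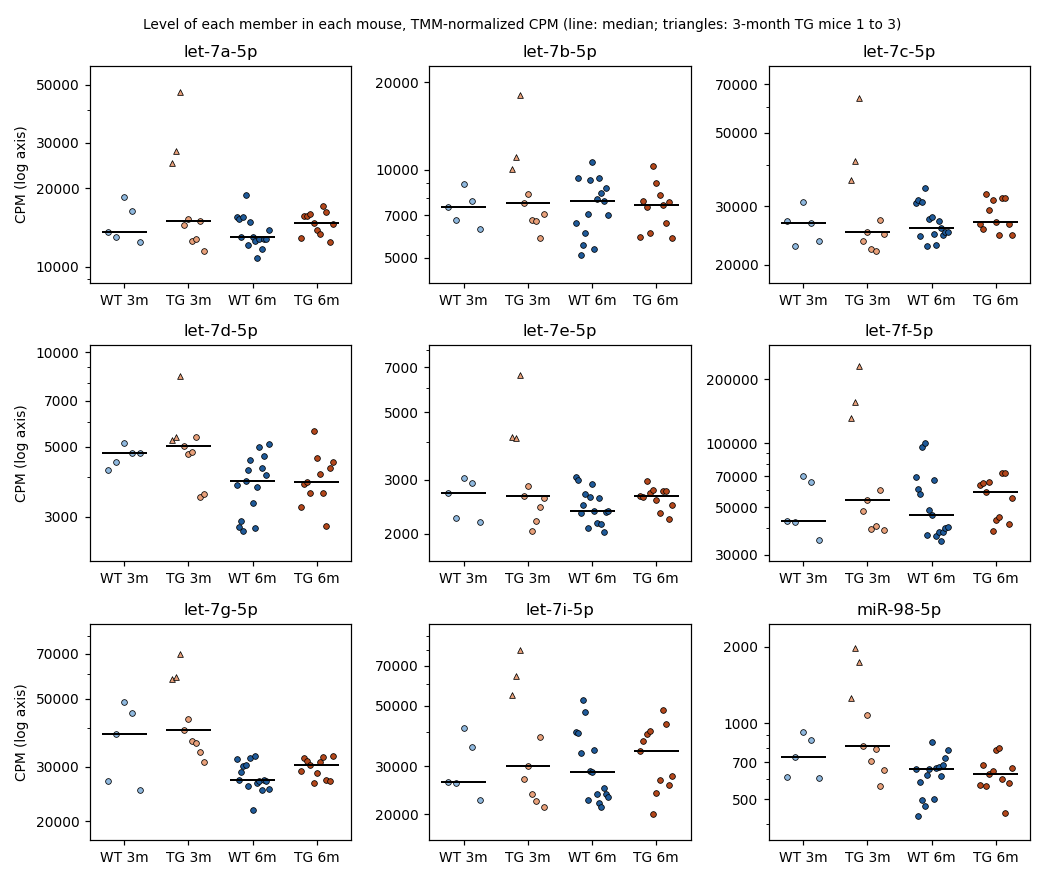
Each panel plots 1 member in TMM-normalized CPM on a log axis, with 1 point per mouse, a line at the group median and triangles for 3-month-old TG mice 1 to 3. let-7g-5p lies at 21702 to 32600 CPM in every 6-month-old mouse and at 33548 CPM or more in 8 of 9 TG mice at 3 months, while for the a, c, e, f and i members the triangles alone lie above the points of all other groups.

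When 3-month-old TG mice 1 to 3 were left out, a choice made after the data were examined, 3 of 9 members had a log2FC below 0. The median over the members was 0.10 and that over all miRNAs tested was -0.002. let-7g-5p was still called lower (log2FC -0.28, SE 0.10, adjusted p = 0.0328, edgeR). miR-98-5p was not (log2FC -0.26, SE 0.15, adjusted p = 0.135, edgeR), and the a, b, c, e, f and i members turned to log2FC values from 0.10 to 0.31, none of which was called. In this fit 315 of 662 miRNAs were called in all, against 99 of 629 with every mouse. Leaving out TG mouse 3 alone brought the log2FC of let-7f-5p from -0.63 to -0.31 and that of let-7a-5p from -0.43 to -0.16. The log2FC of let-7c-5p became 0.05. The same 2 members were called, beside 129 of 642 miRNAs in all. let-7g-5p was called in each of 35 settings of the comparison, and miR-98-5p in 33.

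In WT mice no member was called between 3 and 6 months, against 1 of 660 miRNAs (0.152%) in all. let-7g-5p was the 1 member with an unadjusted p under 0.05 in edgeR, and DESeq2 and limma called none either, with 1 and 2 members under that unadjusted p. Besides let-7g-5p and miR-98-5p, let-7d-5p had the largest log2FC, -0.29 (SE 0.16, adjusted p = 0.375, edgeR). The other 6 lay between -0.12 and 0.06. The log2FC was below 0 for 5 of 9 members in this fit, beside 51.8% of all miRNAs tested, and for 4 to 9 over 20 settings. The directions of the 6 are therefore not settled by these mice.

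The difference between genotypes was not called for any member at either age, nor for any miRNA tested, 0 of 695 at 3 months and 0 of 612 at 6 months (0%). Over all miRNAs, 7 and 3 had an unadjusted p under 0.05 in edgeR, and DESeq2 and limma called none. DESeq2 with 1 factor of unwanted variation, taken from the residuals of a fit, called 6 and 3. At 3 months the log2FC, TG over WT, ran from 0.07 for let-7d-5p to 0.69 for let-7f-5p (SE 0.40, adjusted p = 0.998, edgeR), above 0 for 9 of 9 members. Of all miRNAs tested, 44.5% were below 0, with a median of 0.04. Without TG mice 1 to 3 the log2FC of the members was below 0 for 8 of 9, and -0.12 for let-7f-5p. At 6 months the members differed little between genotypes, with log2FC values from -0.04 to 0.09 and SEs from 0.08 to 0.18. No member had an unadjusted p under 0.05 at either age in edgeR, DESeq2 or limma.

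Whether the age difference itself differed between genotypes was tested over the 4 groups. No member was called, and none of 699 miRNAs (0%) was, in edgeR, DESeq2 or limma, with 14 of them under an unadjusted p of 0.05 in edgeR. The interaction was -0.20 (SE 0.20) for let-7g-5p, -0.50 (SE 0.27) for miR-98-5p and -0.73 (SE 0.41) for let-7f-5p, each with an adjusted p of 0.986 in edgeR. No member reached an unadjusted p under 0.05 in edgeR or limma, and 1 did in DESeq2, which called none. The fall of let-7g-5p and miR-98-5p in TG mice was therefore not shown to differ from the values in WT mice. The age comparison in TG mice and the comparison of genotypes at 3 months share the 9 TG mice of 3 months.

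**Figure D3:**
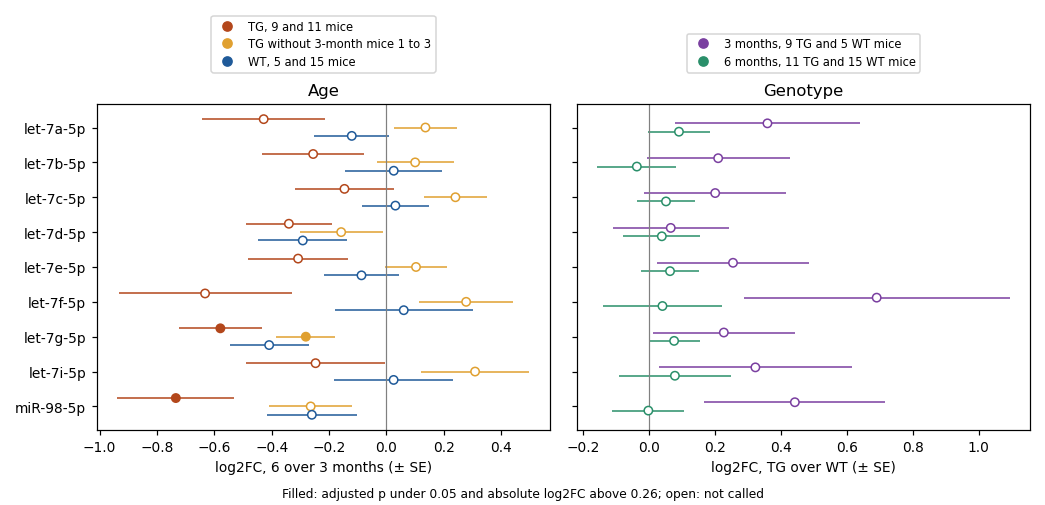
Points give the log2FC of each member with bars of 1 SE, on the left for 6 over 3 months in TG mice, in TG mice without 3-month-old mice 1 to 3 and in WT mice, and on the right for TG over WT mice at each age, with filled points for called members. let-7g-5p is filled with and without the 3 mice, miR-98-5p is filled with them alone, and at 6 months all members lie between -0.04 and 0.09.

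The composition of the family was described from the share of each member in the family total. let-7f-5p held 25.6% to 43.9% of the total over 40 mice, with a median of 29.5%. In 3-month-old TG mice 1 to 3 it held 40.4%, 42.1% and 43.9%, and in the other 6 mice of the group 26.5% to 32.4%. It held 28.4%, 27.3%, 30.7%, 32.0% and 26.5% in WT mice 1 to 5 at 3 months. At 6 months the share ran from 25.9% to 41.0% (median 28.8%) in WT mice and from 25.6% to 35.7% (median 33.0%) in TG mice. Shares of 40.7% and 41.0% were thus reached in 6-month-old WT mice 4 and 5 as well. Their libraries were among the shallowest, with 3091291 and 2080504 miRNA counts.

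let-7b-5p, the member richest in G and C, held 2.34% to 6.86% of the total, with a median of 4.49%. It held 4.89%, 4.30%, 3.93%, 3.82% and 4.71% in WT mice 1 to 5 at 3 months. The range was 2.98% to 4.98% (median 4.48%) in TG mice at 3 months, 2.34% to 6.86% (median 5.25%) in WT mice at 6 months and 3.12% to 6.84% (median 3.86%) in TG mice at 6 months. All groups overlapped, and the WT mice at 6 months held the full range. Where the counts of both hairpins were summed, the mean share of let-7f-5p was between 37.7% and 42.3% in the 4 groups and that of let-7b-5p between 2.59% and 3.09%, since let-7f-5p reads were then counted on both hairpins.

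**Figure D4:**
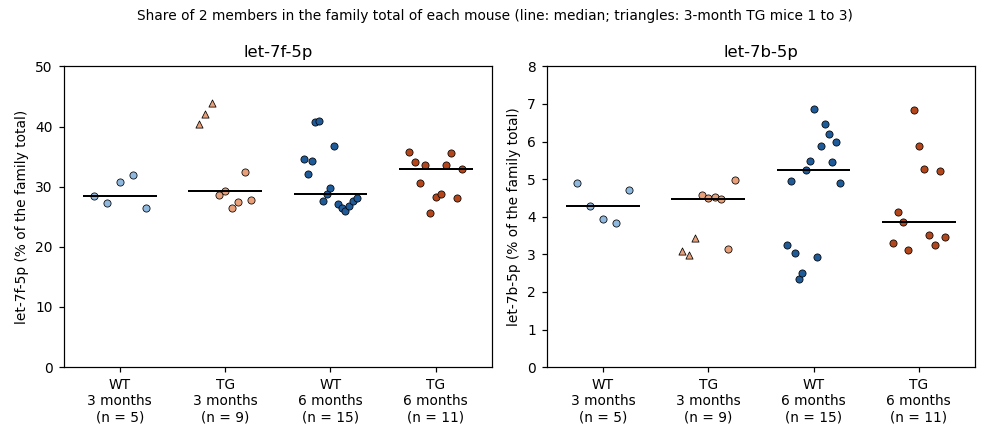
The panels plot the share of let-7f-5p and of let-7b-5p in the family total of each mouse in percent, with 1 point per mouse, a line at the group median and triangles for 3-month-old TG mice 1 to 3. let-7f-5p reaches 40.4% to 43.9% in these 3 mice, and let-7b-5p spreads from 2.34% to 6.86% in 6-month-old WT mice.

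Members that varied together across mice were found by the Pearson correlation of log2 CPM, taken as deviations from the group means over 40 mice. let-7f-5p and let-7i-5p, which differ by 4 bases, had r = 0.97, and let-7a-5p and let-7c-5p, which differ by 1 base, had r = 0.94. let-7d-5p was at -0.01 with let-7f-5p and -0.15 with let-7i-5p. let-7d and let-7f-1 lie in the same transcript, but the let-7f-5p counts do not say which let-7f hairpin they came from. let-7b-5p and let-7i-5p had r = 0.17. These values describe points that share libraries, depth and scaling. Among the points are 3-month-old TG mice 1 to 3, which lay above the other 37 mice for let-7a-5p, let-7c-5p, let-7f-5p and let-7i-5p. No correlation of members was made without them.

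The opposite (3p) arms tell some hairpins apart where the 5p arms do not, as for let-7f. They are the strands left from the hairpin, usually rarer than the 5p strand in this family, and 12 of them were listed. The arms of the let-7f hairpins and of miR-98 are shown because each marks 1 hairpin.
let-7f-1-3p: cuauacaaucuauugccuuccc
let-7f-2-3p: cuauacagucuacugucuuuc
miR-98-3p: cuauacaacuuacuacuuuccu

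let-7f-2-3p differed from let-7f-1-3p by A8G, U13C, C16U and C20U. Between 3 and 6 months in TG mice, let-7f-1-3p rose, and let-7f-2-3p and miR-98-3p fell, while the other 8 arms tested did not pass the test. These 3 are 3 of 11, beside 15.7% of all miRNAs tested, 7.47% higher and 8.27% lower. All are rare, with medians over 40 mice of 16.7, 8.40 and 2.97 CPM, and counts per library from 15 to 377, from 2 to 620 and from 0 to 183.

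let-7f-1-3p, from the chromosome 13 hairpin, was 10.2, 11.2, 8.53, 12.5, 11.7, 11.7, 12.9, 16.7 and 13.3 CPM in 3-month-old TG mice 1 to 9 and 15.5 to 22.5 CPM (median 18.8) at 6 months. Of the younger mice, 8 lay below every older mouse, and mouse 8 lay within their range. The log2FC was 0.64 (SE 0.14, adjusted p = 0.00296, edgeR), and 0.52 without mice 1 to 3. It was not called with library totals, with the spike-in sum (log2FC -0.10), without the filter on low counts (adjusted p = 0.0818, edgeR) or in limma (log2FC 0.46, adjusted p = 0.0658). In WT mice it was 20.1, 11.2, 11.0, 10.7 and 17.6 CPM at 3 months and 11.6 to 22.3 CPM (median 18.3) at 6 months, with a log2FC of 0.34 (SE 0.18, adjusted p = 0.375, edgeR).

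let-7f-2-3p, from the hairpin in Huwe1, was 6.99, 6.35, 5.69, 18.9, 17.3, 19.8, 19.7, 8.60 and 20.6 CPM in 3-month-old TG mice 1 to 9 and 1.40 to 10.8 CPM (median 7.07) at 6 months. The 5 highest younger mice lay above all older mice, and mice 1, 2, 3 and 8 lay within their range. The log2FC was -0.89 (SE 0.28, adjusted p = 0.0335, edgeR), and -1.22 without mice 1 to 3. The call was lost in limma (adjusted p = 0.108) and, with adjusted p values from 0.0505 to 0.0719, when any 1 of 9 mice was left out, namely TG mice 4, 5, 6, 7 and 9 of 3 months and TG mice 2, 3, 4 and 5 of 6 months. In WT mice it was 6.60, 23.3, 15.6, 12.7 and 8.56 CPM at 3 months and 2.53 to 14.2 CPM (median 7.46) at 6 months, with a log2FC of -0.69 (SE 0.27, adjusted p = 0.301, edgeR).

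The count of let-7f-2-3p per count of let-7f-1-3p needs no scaling between libraries. In 3-month-old TG mice 1 to 9 it was 0.683, 0.569, 0.667, 1.51, 1.48, 1.68, 1.53, 0.515 and 1.55. At 6 months it was 0.0833 to 0.611 (median 0.359) in TG mice and 0.114 to 0.86 (median 0.50) in WT mice. In WT mice 1 to 5 at 3 months it was 0.329, 2.08, 1.42, 1.19 and 0.487. No 6-month-old mouse had a ratio above 1, and 8 of 14 mice at 3 months did. The libraries of these 8 mice held 22455957 to 36547011 counts and those of the other 6 held 12006095 to 25145705, and the part of depth in the ratio was not tested.

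**Figure D5:**
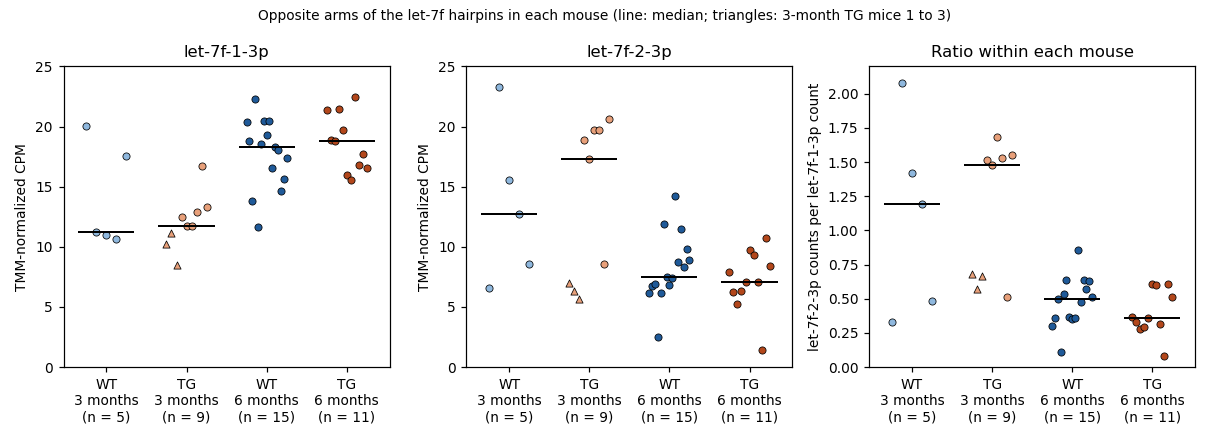
The left and middle panels plot let-7f-1-3p and let-7f-2-3p in TMM-normalized CPM and the right panel plots the count of let-7f-2-3p per count of let-7f-1-3p, with 1 point per mouse, a line at the group median and triangles for 3-month-old TG mice 1 to 3. The ratio lies between 1.19 and 2.08 in 8 mice at 3 months and at 0.86 or less in all others.

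miR-98-3p fell, as did the 5p arm of its hairpin. It was 1.95 to 6.45 CPM (median 4.36) in 9 TG mice at 3 months and 0 to 3.54 CPM (median 2.25) at 6 months, with a log2FC of -1.02 (SE 0.29, adjusted p = 0.0210, edgeR). Of 34 alternatives it was not called in 1, limma with a pseudocount of 0.1 (adjusted p = 0.0636). Of the younger mice 5 lay above all older ones. It was at 0 in 2 of 40 libraries. Before TMM this allows up to 1.56 CPM in the shallower of them, 6-month-old TG mouse 9, whose TMM factor of 0.742 raises the limit. In WT mice the log2FC of miR-98-3p was -0.36 (SE 0.29, adjusted p = 0.564, edgeR).

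Of the other arms, let-7d-3p was the most abundant, at 492 to 1364 CPM (median 757), and reached 9.77% to 48.9% of the counts of let-7d-5p in the same mouse. By contrast let-7g-3p did not exceed 0.0117% of let-7g-5p. let-7a-1-3p and let-7c-2-3p have the same sequence and their levels could not be told apart. Over the 11 arms tested the median log2FC in TG mice was -0.16.

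Apart from the members, 2 listed miRNAs carry the let-7 seed. They are shown to set their sequences beside those above, with the seed in capitals, together with let-7j, whose seed differs.
let-7k: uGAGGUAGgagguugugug
miR-1961: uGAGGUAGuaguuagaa
let-7j: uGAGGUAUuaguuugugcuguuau

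let-7k differs from let-7b-5p by U9G over its length, and let-7j from let-7i-5p by G8U, within the seed. let-7k was rare, with 6.97 to 41.4 CPM, and its log2FC in TG mice was -0.60 (SE 0.26, adjusted p = 0.112, edgeR). miR-1961 fell in TG mice, with a log2FC of -1.27 (SE 0.36, adjusted p = 0.0192, edgeR), from 0.79 to 4.80 CPM (median 1.70) at 3 months to 0.176 to 1.90 CPM (median 0.70) at 6 months, which overlap. It had 1 to 44 counts per library, and without 3-month-old TG mice 1 to 3 it was not called (log2FC -0.71, adjusted p = 0.0652, edgeR). let-7j was more abundant, at 1155 to 3427 CPM, and took 3.69% to 6.94% of the counts of let-7i-5p in the same mouse. Its log2FC in TG mice was -0.39 (SE 0.17, adjusted p = 0.119, edgeR), and since 1 substitution separates it from the abundant let-7i-5p within the length they share, its counts are uncertain.

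The miRNAs that lie beside let-7 hairpins, of the miR-99/100 and miR-125 families, did not move as one. Of these 5, miR-99a-5p rose in TG mice and miR-125b-5p fell, and the other 3 did not pass the test, beside 7.47% of all miRNAs tested called higher and 8.27% lower. miR-99a-5p, whose hairpin lies 721 bases from Mirlet7c-1 in Mir99ahg, was 30916 to 97264 CPM (median 38476) at 3 months and 57110 to 125322 CPM (median 101188) at 6 months, with a log2FC of 1.01 (SE 0.20, adjusted p = 0.00172, edgeR). With the spike-in sum as library size it was not called (log2FC 0.45, adjusted p = 0.0617, edgeR). Its neighbour let-7c-5p had a log2FC of -0.15. The second hairpin of let-7c lies elsewhere, and let-7c-1-3p, which marks the hairpin beside Mir99a, had a log2FC of 0.00 (SE 0.14) at 12.4 to 20.7 CPM and 11.5 to 20.3 CPM in the 2 ages of TG mice. miR-125b-5p was 8648 to 23603 CPM (median 18344) at 3 months and 6843 to 16839 CPM (median 10644) at 6 months, with a log2FC of -0.62 (SE 0.19, adjusted p = 0.0266, edgeR). Its call was lost when 3-month-old TG mice 1 to 3 (adjusted p = 0.0740), mouse 2 alone (adjusted p = 0.0506) or mouse 5 alone (adjusted p = 0.0547) was left out. In WT mice none of the 5 was called.

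Across 40 mice, the miRNAs that followed the mean log2 CPM of the 9 members most closely were sought among 352 others with at least 10 CPM. miR-125a-3p came first (Pearson r = 0.904, Spearman rho = 0.824, and r = 0.824 without the 2 mice farthest from the median), followed by let-7j (r = 0.868), miR-30b-3p (r = 0.863), miR-486a-3p (r = 0.848) and miR-672-5p (r = 0.842). In 3-month-old TG mice 1 to 3, miR-125a-3p was 59.0, 52.7 and 106.8 CPM, against 20.1 to 26.2 CPM in the other 6 mice of the group. miR-486a-3p, whose hairpin is known for its use in red blood cells, was 41.3, 49.7 and 89.9 CPM in these 3 mice and fell with age in TG mice (log2FC -2.14, SE 0.37, adjusted p = 0.000561, edgeR). These likenesses come from libraries that share depth and scaling, and carry no test.

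Lists of miRNAs typical of other cell types were set beside the age comparison in TG mice, in which 8.27% of all miRNAs tested were called lower and 7.47% higher. Both miRNAs of oligodendrocytes were called lower, with a sum of 1186 to 2299 CPM (median 1676) at 3 months and 741 to 1347 CPM (median 1083) at 6 months. Of the 6 miRNAs of neurons 2 were called higher, of the 5 of erythroid cells 1 was higher and 1 lower, and of the 5 of microglia and leukocytes none was called. Of the 4 miRNAs of endothelium and vessel wall 1 was called higher, of the 5 of choroid plexus and epithelium 2 were higher, and of the 4 of heart and muscle that were tested 1 was lower. The sum of the heart and muscle list was 632 to 1698 CPM (median 903) at 3 months and 396 to 894 CPM (median 583) at 6 months in TG mice, and that of the choroid plexus list was 435 to 1058 CPM (median 643) and 794 to 1207 CPM (median 957). The medians at 3 and 6 months of TG mice were 213777 and 311470 CPM for the sum of the neuron list and 11871 and 16843 CPM for that of endothelium, and the ranges overlapped in both. In WT mice none of any list was called. The part of these cell types in the values of let-7g-5p and miR-98-5p was not tested.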

How the data were processed

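The authors trimmed the adapters (cutadapt 2.8 per the labels), aligned the reads with mirdeep2 to the mouse genome mm10 and miRBase, and deposited the raw read count of each pair of mature miRNA and precursor, without normalization. The authors also deposited RPM, each count scaled by its library total, which were checked against the counts and tested in limma alone. From the counts, 52 spike-in entries were left out, and each of 1978 miRNAs was represented by the precursor row with the highest total. A fit held the groups compared alone, and that of the interaction all 4, and was made in edgeR (version 4.0.16, R 4.3.3) with filterByExpr (minimum count 10, minimum total 15), TMM, robust dispersions and the quasi-likelihood F test over all miRNAs. A call needed a log2FC beyond 0.26 in either direction with an adjusted p under 0.05. The study names DESeq2 with RUVSeq, without the kind or number of factors. DESeq2 1.42.0, alone or with 1 factor of unwanted variation taken from the residuals of a fit, served here as an alternative. The RUVSeq package itself was not run. Another alternative was limma 3.58.1 on the log2 of the deposited RPM plus a pseudocount. The RPM were used without TMM, so the scaling differs as well as the test. Totals and shares of the family are descriptions without a test. No pair of libraries of one group was a copy.

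The members and lists were chosen with earlier results of these data known. The text names the 9 members, every other let-7 or miR-98 row, other miRNAs with the seed, the 5p neighbours in let-7 clusters and the 5 miRNAs most like the member mean. Positions of the hairpins come from RefSeq (GRCm38.p6), and the genes in which they lie from GENCODE M21. The fits were tested on simulated counts in which some miRNAs changed by a log2FC of 1 up or down. Of these, edgeR recovered 82.2% in the age comparison of TG mice and 71.6% in that of WT mice. It recovered 49% in the comparison of genotypes at 3 months and 49.2% in the interaction, so changes can be missed there. Library totals ranged from 2656368 to 36547011 counts. The replicate numbers in the titles recur between groups, and the mice were not treated as paired in the main fits.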

Additional observations from a re-analysis of the deposited data

Results flagged for a closer look

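In 3-month-old TG mice (n = 9), mouse 3 stood apart from its group at the upper end for 5 members, its gap to the next mouse being a large part of the range of the group. These were let-7a-5p with 47116 CPM (next 27919), let-7b-5p with 18124 CPM (next 11038), let-7c-5p with 63487 CPM (next 41232), let-7d-5p with 8432 CPM (next 5374) and let-7e-5p with 6623 CPM (next 4147). The gap was 0.537 to 0.616 of the range, against a critical value of 0.493. In all, 50 combinations of a value and a 3-month group were examined, the older groups being too large for the criterion, and chance alone flags about 1 in 20. The next mouse was mouse 2 or mouse 1, which also lay above the rest of the group, and for miR-98-5p and the f, g and i members no single mouse stood apart. The values without mouse 3 and without all 3 mice are given above.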

How the results depend on the processing

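Comparing 6 with 3 months in TG mice, 2 members were called, beside 99 of 629 miRNAs in all. The number of members was 6 with library totals without TMM, 9 with the spike-in sum as library size and 6 in DESeq2 with 1 factor of unwanted variation. Over all 629 miRNAs tested, these settings called 108, 266 and 302. In limma, fitted on RPM without TMM, the number of members was 4 with either pseudocount. limma called 88 and 84 of 629 miRNAs with pseudocounts of 1 and 0.1. The number of members was 1 without 3-month-old TG mice 1 to 3, beside 315 of 662 miRNAs. The cause was not tested. The scaling moved the median log2FC of all miRNAs from -0.09 to -0.29 with library totals and to -0.73 with the spike-in sum, with 263 of 266 calls lower. Relative to these medians the members' median was -0.25, -0.20 and -0.15. Leaving out each mouse in turn gave 2 members each time. Over all miRNAs these fits called from 72 of 628, without 3-month-old TG mouse 5, to 131 of 645, without TG mouse 8 of that age. In them let-7c-5p ranged from -0.20 to 0.05, the latter, 0.0476, without TG mouse 3 of 3 months. Without mice 1 to 3, an alternative chosen after the data were examined like the leaving out of the shallowest libraries and of each TG mouse, log2FC was 0.14 for let-7a-5p, 0.10 for let-7b-5p, 0.24 for let-7c-5p, 0.10 for let-7e-5p, 0.28 for let-7f-5p and 0.31 for let-7i-5p, that of let-7f-5p between genotypes at 3 months was -0.12, and the interaction was 0.19 for let-7f-5p and 0.10 for let-7g-5p. With the spike-in sum let-7f-1-3p was at -0.10. In WT mice 2 members (let-7d-5p and let-7g-5p) were called in DESeq2 with 1 factor of unwanted variation. The calls over all miRNAs in that WT fit are not given here, so these 2 are not read as a result about the members. In TG mice the same method called 302 of 629 miRNAs. With counts summed over precursors the mean share of let-7b-5p was 2.85% and 2.59% in WT and TG mice at 3 months and 3.09% and 2.81% at 6 months, and that of let-7f-5p was 37.7%, 42.3%, 39.7% and 40.1%. Comparisons between genotypes and the interaction gave 0 members in every setting.

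Same-numbered mice do not deviate together throughout (mean correlation between ages 0.226 in TG and 0.0351 in WT mice, with 7 of 9 and 2 of 5 pairs above 0.1, and between genotypes 0.0068 at 3 and 0.259 at 6 months, with 2 of 5 and 9 of 11 pairs above 0.1). With the replicate number as a block, 1 member was called in TG mice (let-7g-5p), 1 in WT mice (let-7d-5p), let-7f-2-3p in TG mice was not called (adjusted p = 0.0548, edgeR), and 124 and 250 miRNAs in all. The low counts of the 3p arms and of miR-1961 limit what can be said of them.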

Other observations

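Within 3-month-old mice, WT mice 1 and 5 and TG mouse 8 had values close to those of older mice in several of the quantities above. The family took 15.4%, 15.7% and 16.6% of their miRNA counts, where 6-month-old mice had 14.5% to 18.7%. let-7f-1-3p was 20.1, 17.6 and 16.7 CPM and the ratio of let-7f-2-3p to let-7f-1-3p was 0.329, 0.487 and 0.515 in them. miR-99a-5p was 91276, 71617 and 97264 CPM in these 3 mice, and the group medians were 44686 and 38476 CPM in WT and TG mice at 3 months and 85661 and 101188 CPM at 6 months. Their libraries, with 12006095, 14052092 and 13200774 total counts, and that of TG mouse 3, with 13377760, were the shallowest of that age. WT mouse 1 is one of the mice whose genotype field differs from its title. These values were noticed in the data and no test was made of them.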
